A study of Mus musculus with 8 samples.

Results

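The genes studied here encode 10 proteins of the TNF receptor signalling complex: the adaptor Tradd, the kinase Ripk1, the TRAF proteins Traf1, Traf2 and Traf3, the inhibitor-of-apoptosis ligases Birc2 and Birc3, and Rnf31, Rbck1 and Sharpin, the subunits of the linear ubiquitin chain assembly complex (LUBAC). They were taken by name from a list of complex components, all 10 were found among the 51912 gene identifiers of the count files, and all 10 were kept by the filter on low counts. RNA came from ear skin epidermal sheets of 8 mice, each a separate animal and library. In 4 mice, labelled A20KIKO, the genotype was A20F/F Krt5-CreERT2+, and in the other 4, labelled A20WT, it was A20F/F Krt5-CreERT2-. All were 8 weeks of age, received 1 mg of tamoxifen intraperitoneally on each of 2 consecutive days and were killed on day 7, counted from the initial dose. Both groups thus carried the conditional A20 (Tnfaip3) allele and both were given tamoxifen, so the presence of the Cre recombinase differs between the groups together with any deletion. Krt5 is a keratin of the basal layer, and its promoter drives the Cre, so the design places it in keratinocytes and not in the other cells of the sheet.

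When TNF binds its receptor, Tradd and Ripk1 are recruited through their death domains, and Tradd brings in Traf2 with the ligases Birc2 and Birc3 (cIAP1 and cIAP2). The ligases attach ubiquitin chains to Ripk1, and LUBAC then adds linear chains, which hold the kinases that activate NF-kB and keep Ripk1 from starting cell death. A20 edits or binds these chains and damps the signal. In mice, loss of Sharpin causes a chronic dermatitis that depends on keratinocyte death. Birc3, Traf1 and Tnfaip3 are textbook NF-kB target genes, whereas most other components are regarded as constitutively expressed.

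The libraries held 40451075 to 89624373 summed counts, with a mean of 70820780, although the labels state an average of 22000000 reads. Counts are therefore not read as independent fragments. The keratinocyte markers of the sheets were abundant, with Krt14 at 14300 to 25700 CPM (counts scaled to each library's TMM-adjusted total) and Krt5 at 3350 to 6870 CPM over the 8 libraries. Markers listed for other cell types were also detected in every library, among them Cd207 (Langerhans cells), Cd3e (T cells), Csf1r (monocytes and macrophages), Dcn (fibroblasts) and Dct (melanocytes). Tnfaip3, the targeted gene, had 90.9, 55.0, 64.0 and 86.2 CPM in the libraries labelled A20KIKO (mice 1 to 4) and 13.5, 19.6, 17.7 and 15.4 CPM in those labelled A20WT. That is opposite to the label, but a count over the whole gene includes exons outside a deleted part and so does not check the deletion. All directions below are differences between libraries with these labels.

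Among the 10 complex genes, Birc3 was the gene that passed the test and Rnf31 lay just outside it. With edgeR (quasi-likelihood F-test, Benjamini-Hochberg adjusted p under 0.05 among 16512 tested genes), 1 of the 10 rose, where 2.43% of all tested genes rose and 3.49% changed in either direction. None of the 10 fell with this test (0 genes, also 0 at an unadjusted p under 0.05 and 0 with DESeq2), where 1.06% of all tested genes fell. Birc3, Rnf31 and Traf1, 3 genes, had an unadjusted p under 0.05, where 15.4% of all tested genes reached it. Each library labelled A20KIKO lay above each library labelled A20WT for 2 of the 10, Birc3 and Rnf31, where 5.78% of all tested genes were separated in that direction. The median log2 change was 0.25 over the 10 genes and -0.01 over all tested genes. With TMM 7 of the 10 lay above 0, as did 8085 of the 16512 tested genes. The 7 were also found under RLE, upper-quartile and total-count scaling of the same libraries. In bulk RNA a change in the number of cells that express a gene and a change in RNA per cell cannot be told apart.

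**Figure D1:**
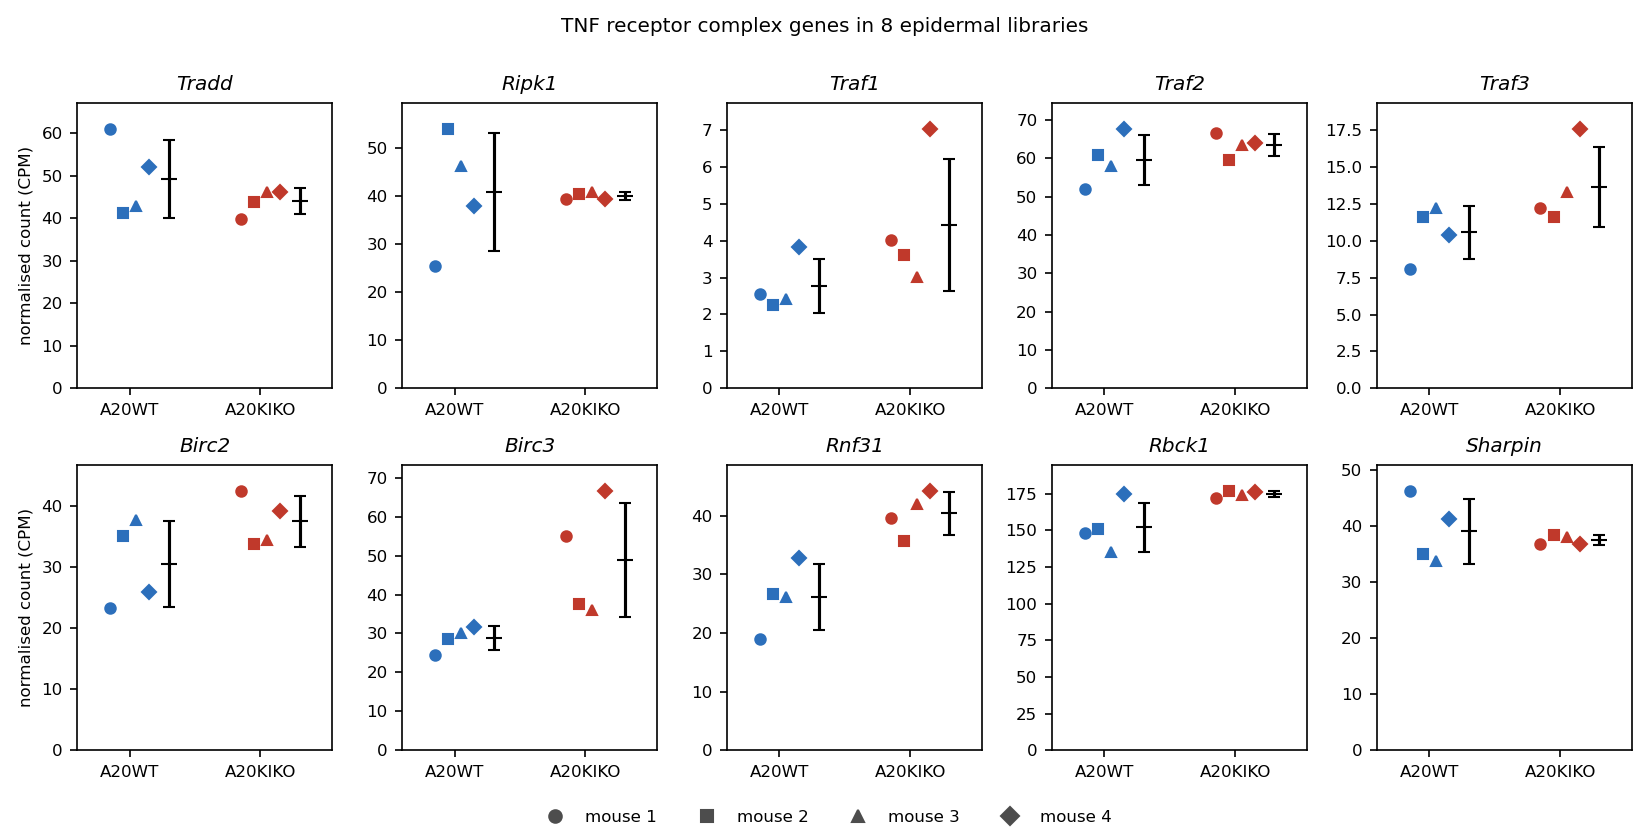
Normalised counts (CPM, linear axis from 0) of the 10 complex genes in the 4 libraries of each label. Each symbol is 1 mouse, and the black bar is the mean ± SD (n = 4). Birc3 and Rnf31 separate the groups, and Ripk1, Sharpin and Rbck1 show a narrow A20KIKO group beside a wide A20WT group.

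Birc3 and Birc2 are paralogous ubiquitin ligases that lie next to each other on chromosome 9, both on the minus strand (GENCODE M21, GRCm38). Birc3 (ENSMUSG00000032000, chr9:7848699-7873186) is the inducible member, and Birc2 (ENSMUSG00000057367, chr9:7818227-7837064) is the constitutive one. Their promoter windows are shown with those of Rnf31, the other separated gene, and Traf2 and Traf3, which held a match to the stricter kB motif, so that the letters behind the motif counts can be read. Each window runs from 250 bases before to 50 bases after a RefSeq start (GRCm38.p6), 5′ to 3′ on the gene's strand, with motif matches in capitals: Birc3 chr9:7873121-7873420 (minus), Birc2 chr9:7837008-7837307 (minus), Rnf31 chr14:55591492-55591791 (plus), Traf2 chr2:25546891-25547190 (minus) and Traf3 chr12:111166120-111166419 (plus).
Birc3: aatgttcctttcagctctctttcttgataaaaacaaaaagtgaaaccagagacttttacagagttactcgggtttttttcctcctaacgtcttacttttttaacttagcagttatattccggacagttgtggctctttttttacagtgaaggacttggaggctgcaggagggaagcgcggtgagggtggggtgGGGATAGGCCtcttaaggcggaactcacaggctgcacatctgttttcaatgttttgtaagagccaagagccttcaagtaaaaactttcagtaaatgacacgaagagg
Birc2: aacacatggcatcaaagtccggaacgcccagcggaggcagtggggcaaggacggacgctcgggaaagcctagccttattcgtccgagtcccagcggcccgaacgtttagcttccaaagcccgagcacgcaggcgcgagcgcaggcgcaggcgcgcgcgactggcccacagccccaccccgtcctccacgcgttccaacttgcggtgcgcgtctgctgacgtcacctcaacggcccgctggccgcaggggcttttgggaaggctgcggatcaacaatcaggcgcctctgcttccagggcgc
Rnf31: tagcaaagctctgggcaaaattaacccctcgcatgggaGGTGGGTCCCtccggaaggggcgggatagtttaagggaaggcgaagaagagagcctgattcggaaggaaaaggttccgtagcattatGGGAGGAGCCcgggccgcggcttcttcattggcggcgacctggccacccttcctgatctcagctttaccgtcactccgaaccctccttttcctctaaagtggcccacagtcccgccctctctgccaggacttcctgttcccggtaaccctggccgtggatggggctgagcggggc
Traf2: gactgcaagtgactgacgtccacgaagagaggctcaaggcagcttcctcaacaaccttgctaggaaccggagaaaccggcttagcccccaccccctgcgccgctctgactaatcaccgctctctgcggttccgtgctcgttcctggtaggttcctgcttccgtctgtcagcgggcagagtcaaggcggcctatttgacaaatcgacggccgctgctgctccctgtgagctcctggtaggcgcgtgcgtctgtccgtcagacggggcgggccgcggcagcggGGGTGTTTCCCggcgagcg
Traf3: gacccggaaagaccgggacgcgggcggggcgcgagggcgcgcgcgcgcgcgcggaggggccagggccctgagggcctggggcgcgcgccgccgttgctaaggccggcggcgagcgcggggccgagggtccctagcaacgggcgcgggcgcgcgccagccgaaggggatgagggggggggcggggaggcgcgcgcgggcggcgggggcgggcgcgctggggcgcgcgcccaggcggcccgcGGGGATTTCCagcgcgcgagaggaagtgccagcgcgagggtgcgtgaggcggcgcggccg

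Motifs of 10 bases were searched on both strands of the 11 windows found for 8 of the 10 genes, all but Sharpin and Tradd: a loose kB type with 6 fixed bases, a stricter kB type with 8 fixed bases and an interferon-response type with 8 fixed bases. The loose kB type matched 57 bases before the start of Birc3 and 212 and 125 bases before that of Rnf31, and 20.7% of 32851 promoter windows of all genes hold it. The stricter kB type, held by 1.63% of all windows, matched 10 bases before the start of Traf3. It also matched 31 bases after the start of Traf2, where it overlaps a reverse-strand match to the loose motif. The interferon-response type, held by 3.44% of all windows, matched in 1 window each of Rbck1 and Ripk1. The windows of Birc2 and Traf1 held none of the 3 motifs. These are letter matches and describe no binding.

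Birc3 had 55.0, 37.5, 36.1 and 66.6 CPM in A20KIKO mice 1 to 4 and 24.6, 28.7, 30.2 and 31.6 CPM in A20WT mice 1 to 4. The groups did not overlap, and A20KIKO mice 1 and 4 stood well above A20KIKO mice 2 and 3. The mean went from 28.8 ± 3.03 to 48.8 ± 14.6 CPM (SD, n = 4 each), a 1.70-fold rise (log2 change 0.76, SE 0.19, 95% interval 0.35 to 1.18, edgeR adjusted p = 0.0484). The call is marginal: it was kept in 6 of 13 alternative fits (adjusted p 0.00365 to 0.0726). The 6 include a transcript-length offset, described below, that was chosen after the data were seen. Of the 8 fits that left out a library, the call was kept in 2, those without A20KIKO mouse 2 or 3. Without A20KIKO mouse 1 the adjusted p was 0.158, without A20KIKO mouse 4 it was 0.110, and without A20WT mouse 1, 2, 3 or 4 it was 0.121, 0.0958, 0.110 or 0.0949, while the log2 change stayed between 0.58 and 0.88.

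Birc2 had 42.4, 33.8, 34.3 and 39.1 CPM in A20KIKO mice 1 to 4 and 23.3, 35.0, 37.7 and 25.8 CPM in A20WT mice 1 to 4. The groups overlapped, with A20WT mice 1 and 4 below the rest. Its log2 change of 0.30 (SE 0.16, 95% interval -0.06 to 0.65, edgeR adjusted p = 0.435) did not pass, and the interval reaches a fold of 1.57. The count ratio of Birc3 to Birc2, which needs no scaling between libraries, was 1.30, 1.11, 1.05 and 1.70 in A20KIKO mice 1 to 4 and 1.06, 0.819, 0.799 and 1.23 in A20WT mice 1 to 4. These ratios overlapped between the groups, so an unequal change of the 2 paralogs was not shown (1.32-fold higher ratio, exact two-sided permutation p = 0.143, 0.229 adjusted over 8 pairs). How reads that match both paralogs were assigned is not given in the sources used here.

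The genes whose log2 CPM followed Birc3 most closely over the 8 libraries were Il2rg (Pearson r = 0.987), Ehd4 (0.981) and Lgmn (0.977). Il2rg encodes the gamma chain shared by several cytokine receptors of lymphocytes, Ehd4 a membrane-trafficking ATPase and Lgmn a lysosomal protease. These 3 were picked from all tested genes for this likeness, over libraries that also share the group difference, so the values are a description. Il2rg had 9.02 to 14.6 CPM in the libraries labelled A20KIKO and 6.33 to 8.23 CPM in those labelled A20WT, and none of the 3 passed the test (edgeR adjusted p = 0.0693, 0.219 and 0.312).

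Rnf31 (HOIP), the catalytic subunit of LUBAC, had 39.6, 35.6, 42.0 and 44.2 CPM in A20KIKO mice 1 to 4 and 19.0, 26.7, 26.2 and 32.7 CPM in A20WT mice 1 to 4. The groups did not overlap, and the lowest value was that of A20WT mouse 1. The means were 40.3 ± 3.70 and 26.1 ± 5.59 CPM (SD, n = 4 each), a ratio of 1.54 (log2 change 0.63, SE 0.16, 95% interval 0.28 to 0.97, edgeR adjusted p = 0.0509). It passed in 7 of 13 alternative fits (adjusted p 0.00637 to 0.0730). The 7 include the transcript-length offset chosen after the data were seen. Of the 8 fits that left out a library, Rnf31 passed in 1 (0.0335 without A20WT mouse 4). The log2 changes were 0.50 to 0.75 in those 8 fits.

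Rnf31 (ENSMUSG00000047098, chr14:55591708-55603693, plus strand) sits between 2 genes that rose. Its last 123 exonic bases overlap the start of Irf9, a transcription factor of the interferon response on the same strand. Irf9 had 174, 107, 119 and 159 CPM in A20KIKO mice 1 to 4 and 47.9, 48.5, 54.2 and 57.3 CPM in A20WT mice 1 to 4 (log2 change 1.43, SE 0.16, edgeR adjusted p = 0.000592). Psme2, a subunit of the proteasome activator, starts 594 bases upstream on the other strand and rose 1.66-fold (edgeR adjusted p = 0.0315). How reads in the overlap with Irf9 were counted is not given in the sources used here, and their part in the Rnf31 count was not tested.

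Rbck1 (HOIL-1) and Sharpin, the other LUBAC subunits, did not pass. Rbck1 (ENSMUSG00000027466, chr2:152316334-152332653, minus strand) had 172, 177, 174 and 176 CPM in A20KIKO mice 1 to 4 and 148, 151, 135 and 175 CPM in A20WT mice 1 to 4. The groups met only through A20WT mouse 4, and the log2 change was 0.20 (SE 0.10, 95% interval -0.03 to 0.43, edgeR adjusted p = 0.400). Sharpin (ENSMUSG00000022552, chr15:76347040-76351111, minus strand) had 36.8, 38.5, 38.0 and 36.8 CPM in A20KIKO mice 1 to 4 and 46.3, 35.1, 33.7 and 41.3 CPM in A20WT mice 1 to 4. The A20KIKO values lay inside the A20WT range, and the log2 change was -0.06 (SE 0.12, 95% interval -0.33 to 0.21, edgeR adjusted p = 0.883).

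The balance of LUBAC transcripts within a library was compared with count ratios. A trend with transcript length that differs between libraries, given below, does not cancel in such a ratio. The longest annotated transcripts have 4939 bases for Rnf31, 2384 for Rbck1 and 1905 for Sharpin. The part of length in these ratios was not tested. The ratio of Rnf31 to Sharpin was 1.08, 0.924, 1.1 and 1.2 in A20KIKO mice 1 to 4 and 0.410, 0.760, 0.777 and 0.790 in A20WT mice 1 to 4. The groups did not overlap, and A20WT mouse 1 stood far below the other A20WT mice. The ratio was 1.62-fold higher in the libraries labelled A20KIKO (exact two-sided permutation p = 0.0286, the smallest that 4 against 4 can give, and 0.0762 adjusted over 8 pairs). Rnf31 to Rbck1 was 1.36-fold higher and Rbck1 to Sharpin 1.19-fold higher, each without overlap and with the same exact permutation p and adjusted p. None of these 3 differences passed after adjustment, which with 8 pairs needs at least 5 pairs at that smallest p. The 3 ratios are formed from the same 3 genes, so they are not separate results. A20WT mouse 1 was lowest in each of them. Without that library the log2 difference was 0.47 for Rnf31 to Sharpin, 0.31 for Rnf31 to Rbck1 and 0.16 for Rbck1 to Sharpin. With all 8 libraries these were 0.70, 0.44 and 0.26.

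**Figure D2:**
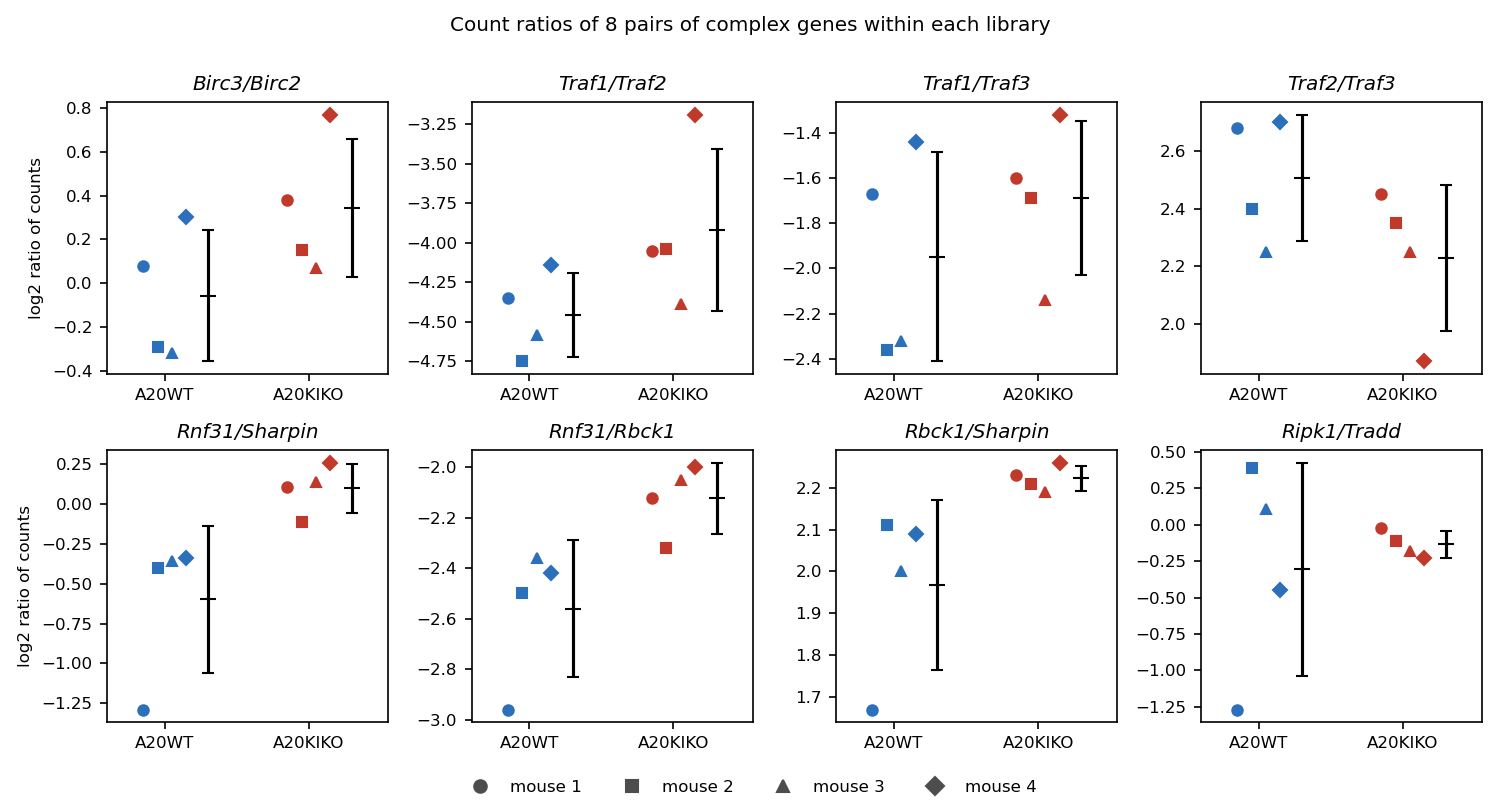
Log2 ratio of counts of 2 complex genes within a library, for 8 pairs, in the 4 libraries of each label. Symbols are mice and black bars are mean ± SD (n = 4). The 3 ratios among Rnf31, Rbck1 and Sharpin do not overlap between the groups, and A20WT mouse 1 is lowest in each of them.

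The TRAF genes differed widely in level and none passed the test. Traf1, an adaptor without the RING domain of the other TRAF proteins, was the lowest of the 10 genes, with 123 to 617 counts per library. It lies at chr2:34941750-34961772 (ENSMUSG00000026875, minus strand). It had 4.02, 3.60, 3.01 and 7.03 CPM in A20KIKO mice 1 to 4 and 2.55, 2.25, 2.42 and 3.84 CPM in A20WT mice 1 to 4. A20KIKO mouse 4 stood apart at the top, and A20WT mouse 4 overlapped with the A20KIKO group. The log2 change was 0.68 (SE 0.28, 95% interval 0.06 to 1.30, edgeR adjusted p = 0.264), and 0.36 without A20KIKO mouse 4 (adjusted p = 0.635). It was 0.51 from lane 1 alone and 0.86 from lane 2 alone (adjusted p = 0.574 and 0.0775).

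Traf2 (ENSMUSG00000026942, chr2:25517982-25546940, minus strand), the adaptor that carries the Birc2 and Birc3 proteins into the complex, had 66.5, 59.6, 63.4 and 64.1 CPM in A20KIKO mice 1 to 4 and 52.0, 60.9, 57.9 and 67.7 CPM in A20WT mice 1 to 4. The groups overlapped, and the log2 change was 0.09 (SE 0.11, 95% interval -0.15 to 0.33, edgeR adjusted p = 0.783). Traf3 (ENSMUSG00000021277, chr12:111166370-111267153, plus strand), which with Traf2 restrains the non-canonical NF-kB kinase Map3k14, had 12.2, 11.6, 13.3 and 17.6 CPM in A20KIKO mice 1 to 4 and 8.12, 11.6, 12.2 and 10.4 CPM in A20WT mice 1 to 4. A20KIKO mouse 4 was again the highest library, and the log2 change was 0.37 (SE 0.17, edgeR adjusted p = 0.331), or 0.23 without that mouse (adjusted p = 0.684).

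Of the 3 TRAF pairs, the ratio of Traf1 to Traf2 differed most, 1.45-fold higher in the libraries labelled A20KIKO (log2 difference 0.54, exact two-sided permutation p = 0.0857, 0.171 adjusted over 8 pairs). That log2 difference was 0.29 without A20KIKO mouse 4, 0.26 in lane 1 alone and 0.80 in lane 2 alone. Traf1 to Traf3 was 1.20-fold higher (exact permutation p = 0.343) and Traf2 to Traf3 was 0.826-fold (exact permutation p = 0.2), and all 3 ratios overlapped between the groups.

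The receptor-proximal adaptor and kinase showed no difference that passed. Ripk1 (ENSMUSG00000021408, chr13:34002363-34037147, plus strand), the kinase and ubiquitin scaffold of the complex, had 39.3, 40.3, 40.8 and 39.3 CPM in A20KIKO mice 1 to 4 and 25.3, 53.9, 46.2 and 37.9 CPM in A20WT mice 1 to 4. The A20KIKO libraries lay close together inside a wide A20WT range, and the log2 change was -0.03 (SE 0.19, 95% interval -0.44 to 0.38, edgeR adjusted p = 0.960). Tradd (ENSMUSG00000031887, chr8:105258286-105264609, minus strand), the death-domain adaptor, had 39.7, 43.7, 46.2 and 46.1 CPM in A20KIKO mice 1 to 4 and 61.0, 41.1, 42.9 and 52.0 CPM in A20WT mice 1 to 4. The groups overlapped, A20WT mouse 1 was the highest library, and the log2 change was -0.16 (SE 0.14, 95% interval -0.47 to 0.14, edgeR adjusted p = 0.653). Without A20WT mouse 1 it was -0.04 (adjusted p = 0.892).

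The ratio of Ripk1 to Tradd was 0.989, 0.924, 0.882 and 0.851 in A20KIKO mice 1 to 4 and 0.415, 1.31, 1.08 and 0.730 in A20WT mice 1 to 4 (exact two-sided permutation p = 0.771). Exons of Ripk1 overlap those of Serpinb6a, a serpin gene on the opposite strand, by 241 bases, and without strand information reads there cannot be separated. Serpinb6a had a log2 change of -0.25 (edgeR adjusted p = 0.383). Of the tested neighbours not yet given, Trib3, a stress-response pseudokinase gene next to Rbck1, had 28.4, 27.5, 22.5 and 28.6 CPM in A20KIKO mice 1 to 4 and 37.6, 33.2, 33.3 and 38.4 CPM in A20WT mice 1 to 4. Its groups did not overlap, with A20KIKO lower, but it did not pass (log2 change -0.41, edgeR adjusted p = 0.0977). Tbc1d20, Bphl, Maf1, Cyc1, Fbxl8, B3gnt9 and Amn overlapped between the groups and did not pass (edgeR adjusted p 0.309 to 0.963).

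The SD of CPM was lower in the libraries labelled A20KIKO for 7 of the 10 genes, a share close to the 60.0% of all tested genes. The exceptions were Birc3, Traf1 and Traf3, where A20KIKO mouse 4 was highest. In A20WT mouse 1 the direction of the deviation went with transcript length. Tradd and Sharpin, with the shortest transcripts of the 10 (1689 and 1905 bases for the longest annotated form), were 0.44 and 0.34 log2 units above the mean of the other A20WT libraries. Ripk1, Rnf31 and Traf3, with the longest (6472, 4939 and 7060 bases), deviated by -0.85, -0.58 and -0.48 log2 units.

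The same trend was present over all genes. Across 16488 tested genes with a length, the deviation of A20WT mouse 1 fell with length (Spearman rho -0.483). That of A20WT mouse 2 rose with it (0.478). Genes are not independent replicates. Each deviation was taken from the mean of the other libraries of the same group. A20WT mice 1 and 2 thus enter each other's reference, and their opposite slopes are not independent. For the other 6 libraries rho lay between -0.163 and 0.192. With a per-library length trend taken out, an adjustment chosen after this was seen, the log2 change was 0.60 for Rnf31 and 0.76 for Birc3, and both passed (edgeR adjusted p = 0.0196 and 0.0362). The other 8 genes stayed above 0.05 (adjusted p 0.188 to 0.958).

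**Figure D3:**
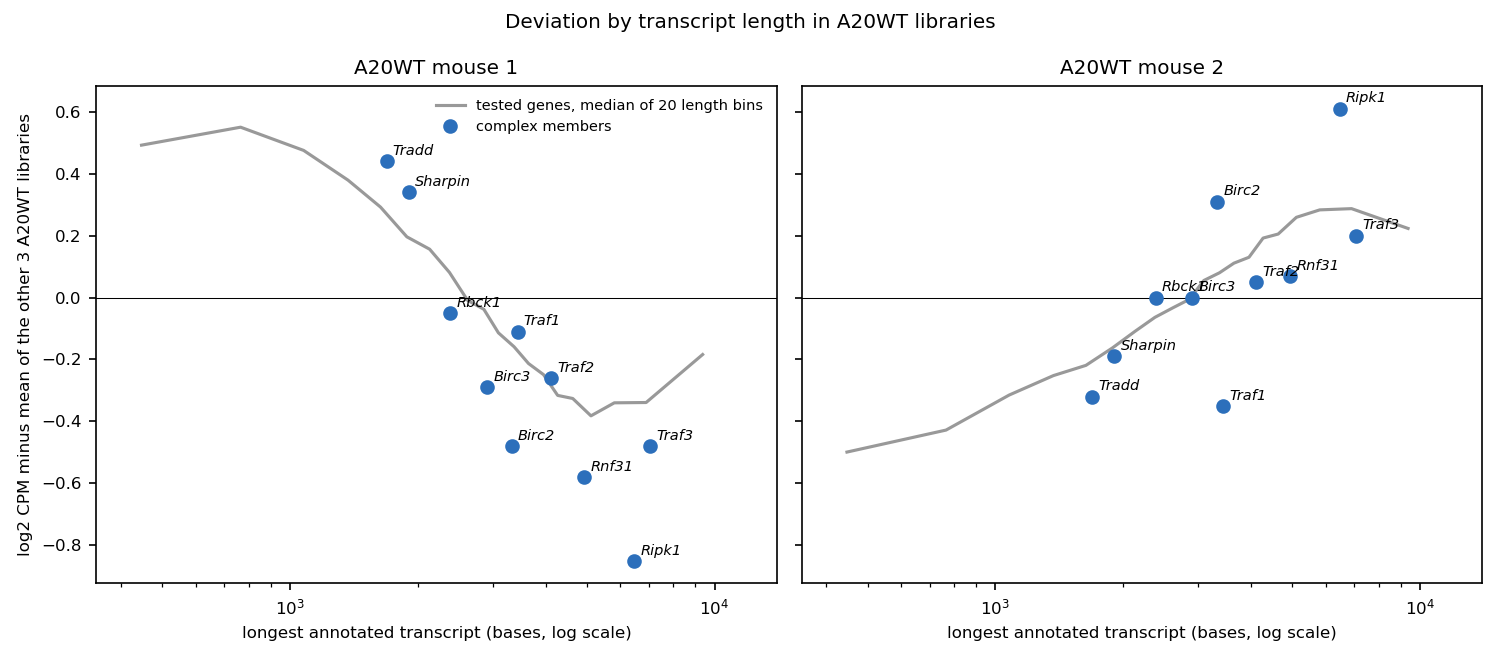
Deviation of 2 A20WT libraries from the mean of the other 3 A20WT libraries (log2 CPM) against the longest annotated transcript (bases, log axis). Points are the 10 complex genes and the grey line is the median of tested genes in 20 length bins. In A20WT mouse 1 short transcripts such as Tradd lie above 0 and long ones such as Ripk1 below, and A20WT mouse 2 shows the opposite slope. Each of the 2 libraries is part of the other's reference, so the slopes are not independent.

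Levels of different genes were compared per kb of annotated exon. In the libraries labelled A20WT, Rbck1 was highest at 33.1 ± 3.70 CPM per kb (SD, n = 4), followed by Tradd at 26.4 ± 4.93, Traf2 at 11.7 ± 1.29 and Sharpin at 10.3 ± 1.53 CPM per kb. Birc2 had 6.65 ± 1.53, Birc3 5.74 ± 0.604, Ripk1 4.90 ± 1.47 and Rnf31 4.56 ± 0.976 CPM per kb, and Traf3 and Traf1 were lowest at 1.44 ± 0.243 and 0.313 ± 0.0821 CPM per kb. Library ranges overlapped between the neighbours Rbck1 and Tradd, between Traf2 and Sharpin, and at each step from Birc2 to Rnf31, so those orders are not resolved. In the libraries labelled A20KIKO, Birc3 had 9.75 ± 2.92 and Rnf31 7.04 ± 0.645 CPM per kb, while Ripk1 had 4.78 ± 0.0916. The exon sum sets this scale: with the longest transcript as length, Sharpin at 20.5 ± 3.06 CPM per kb lay above Traf2 at 14.5 ± 1.59.

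Markers of other cells differed between the groups beside these values. Of 9 monocyte and macrophage markers, 8 were tested and 3 rose (C1qa, C1qb and Ly6c2), where 2.43% of all tested genes rose. The 9 summed to 97.3 to 169 CPM in the libraries labelled A20KIKO and 51.7 to 93.5 CPM in those labelled A20WT. The highest sum, in A20KIKO mouse 4, held 52.4 CPM of Cd14, which had 2.7 to 4.09 CPM in A20KIKO mice 1 to 3. C1qb, a complement subunit made by macrophages, had 13.3, 2.25, 6.59 and 8.32 CPM in A20KIKO mice 1 to 4 and 0.392 to 0.776 CPM in the A20WT mice. Csf1r, the most abundant of these markers, had another order, with 80.4, 78.8, 88.4 and 72.8 CPM in A20KIKO mice 1 to 4. It had 39.5 to 77.9 CPM in the A20WT mice and did not pass (edgeR adjusted p = 0.324). The 4 markers shared by leukocytes summed to 124 to 198 CPM and 103 to 134 CPM, with A20KIKO mouse 4 highest. Of these 4, 0 passed edgeR's test and 1 had an unadjusted p under 0.05, which 15.4% of all tested genes reached.

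Of 7 neutrophil markers, 3 were tested and 0 passed edgeR's test (1 at an unadjusted p under 0.05), and their sum was 2930 CPM in A20KIKO mouse 4, 22.9 to 61.0 CPM in A20KIKO mice 1 to 3 and 5.55 to 38.4 CPM in the libraries labelled A20WT. In that mouse S100a8 had 947 CPM and S100a9 1900 CPM, and both are also known to be expressed by stressed keratinocytes. Retnlg had 22.2 CPM in that mouse and at most 0.0173 CPM elsewhere. Ly6g, which defines mouse neutrophils, had 1.61 CPM in A20KIKO mouse 4 and 0 in each of the other 7 libraries. Langerhans and dendritic cell markers summed to 1830 to 2010 CPM and 1600 to 1920 CPM, and T cell markers to 136 to 147 CPM and 125 to 153 CPM. Such sums follow the most abundant genes. Log2 changes lay above 0 for 5 and below 0 for 2 of the former, and for 4 and 4 of the latter. Itgax, H2-Aa and Trbc2 were higher in each A20KIKO library than in each A20WT library, where 5.78% of all tested genes were. None of the 3 passed (edgeR adjusted p = 0.0623, 0.52 and 0.212). Fibroblast markers summed to 14.9 to 35.7 CPM and 39.2 to 54.0 CPM, and melanocyte markers to 34.5 to 160 CPM and 33.4 to 45.6 CPM. Of 4 tested fibroblast markers 0 passed edgeR's test and 3 had an unadjusted p under 0.05. For 4 tested melanocyte markers these numbers were 0 and 2, where 15.4% of all tested genes reached that unadjusted p. Of 9 keratinocyte markers 1 fell, where 1.06% of all tested genes fell. It was Krt5, with 3350 to 3640 CPM against 5570 to 6870 CPM (edgeR adjusted p = 0.00272). The Krt5 promoter drives the Cre that only the A20KIKO mice carry, and the part of the Cre in the Krt5 value was not tested. None of the other keratinocyte markers passed. The part of the cell types listed here in the Birc3, Traf1 and Traf3 values was not tested.

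The other genes of the pathway were taken as 5 lists. Beside the counts given for each list below, 2.43% of all tested genes rose, 1.06% fell and 15.4% had an unadjusted p under 0.05. Of 11 genes for the ligand, receptors and further TRAF and inhibitor-of-apoptosis proteins, 2 rose and 0 fell by edgeR's test (0 fell with DESeq2, and 4 of 11 had an unadjusted p under 0.05), with a median log2 change of 0.20. Tnf, the ligand, had 4.36, 3.39, 2.94 and 9.95 CPM in A20KIKO mice 1 to 4 and lay between 0.812 and 1.77 CPM in the A20WT mice (a log2 change of 2.04, SE 0.39, at an edgeR adjusted p of 0.0121). Tnfrsf1b, the TNF receptor found mainly on immune cells, had 5.85 to 11.6 CPM against 2.09 to 3.51 CPM (edgeR adjusted p = 0.00538, log2 change 1.45, SE 0.24). Without A20WT mouse 1, 1 of the 11 was called. Tnfrsf1a, the broadly expressed receptor that assembles the complex, did not pass, with 225 to 255 CPM against 211 to 221 CPM (log2 change 0.12, 95% interval -0.09 to 0.33, edgeR adjusted p = 0.616).

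Of 14 genes for kinases recruited by the complex and their partners, 1 rose, Ikbke, an IKK-related kinase of the interferon pathway. It had 58.9, 51.7, 52.2 and 53.8 CPM in A20KIKO mice 1 to 4 and 22.9, 33.2, 30.8 and 31.4 CPM in A20WT mice 1 to 4 (log2 change 0.87, SE 0.13, edgeR adjusted p = 0.00292). The median log2 change of the 14 was 0.08. Of 9 deubiquitinases and ubiquitin binders, 3 rose: Tnfaip3 itself, Tnip1 and Tnip3. Tnfaip3 (log2 change 2.16, SE 0.18, edgeR adjusted p = 8.36e-05) is the targeted gene, and its whole-gene count does not check the deletion. The log2 change was 0.68 for Tnip1 (SE 0.13, edgeR adjusted p = 0.0136). For Tnip3 it was 3.31 (SE 0.67, edgeR adjusted p = 0.0395). Tnip1 and Tnip3 encode ABIN proteins, which bind A20 and ubiquitin chains, and 1 of the 9 was called without A20KIKO mouse 1. Their median was 0.22, and Otulin, the deubiquitinase that removes linear chains, had 36.8 to 44.2 CPM against 39.2 to 47.2 CPM (edgeR adjusted p = 0.784).

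Of 5 genes of the cytosolic death complex, 1 rose, Mlkl, the executioner of necroptosis, with 18.6, 5.37, 9.41 and 18.1 CPM in A20KIKO mice 1 to 4 and 3.95 to 4.19 CPM in the A20WT mice (log2 change 1.67, SE 0.33, edgeR adjusted p = 0.0176). Without A20WT mouse 1, 2, 3 or 4, 0 of the 5 passed edgeR's test, against 1 in all 8 libraries. At an unadjusted p under 0.05 there were 3 of the 5 in all 8 libraries. The median of the 5 was 0.40. Of 9 ubiquitin-conjugating enzymes and antagonists of the inhibitor-of-apoptosis proteins, 0 passed edgeR's test (0 at an unadjusted p under 0.05 and 0 with DESeq2). All 9 had log2 changes below 0, as did 8427 of the 16512 tested genes with TMM. The 9 stayed below 0 under each of the 4 scalings, which use the same 8 libraries and are not separate evidence. With TMM they ranged from -0.25 to -0.06 with a median of -0.09. Ube2d3 and Ube2n, the most abundant of them, had 346 to 512 against 436 to 539 CPM and 113 to 149 against 129 to 152 CPM.

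**Figure D4:**
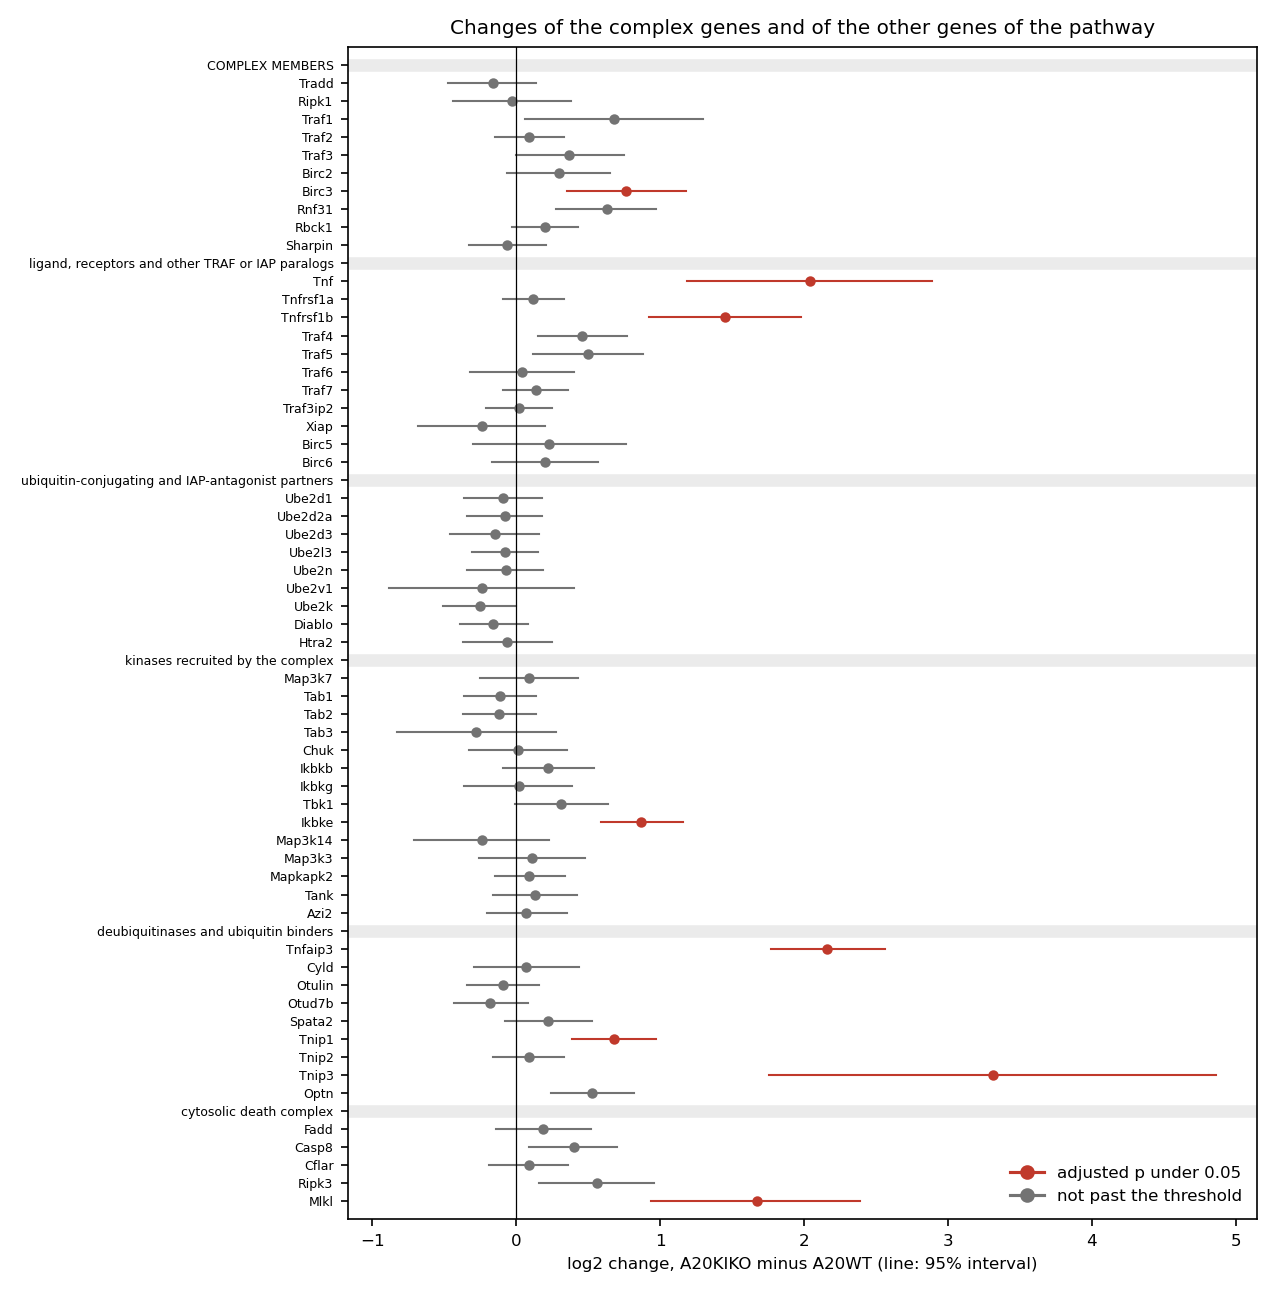
Log2 change (A20KIKO minus A20WT, with 95% intervals) of the 10 complex genes and of 48 other genes of the pathway in 5 lists. Red marks an edgeR adjusted p under 0.05: Birc3 among the complex genes, and Tnf, Tnfrsf1b, Ikbke, Tnfaip3, Tnip1, Tnip3 and Mlkl among the others.

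**Figure D5:**
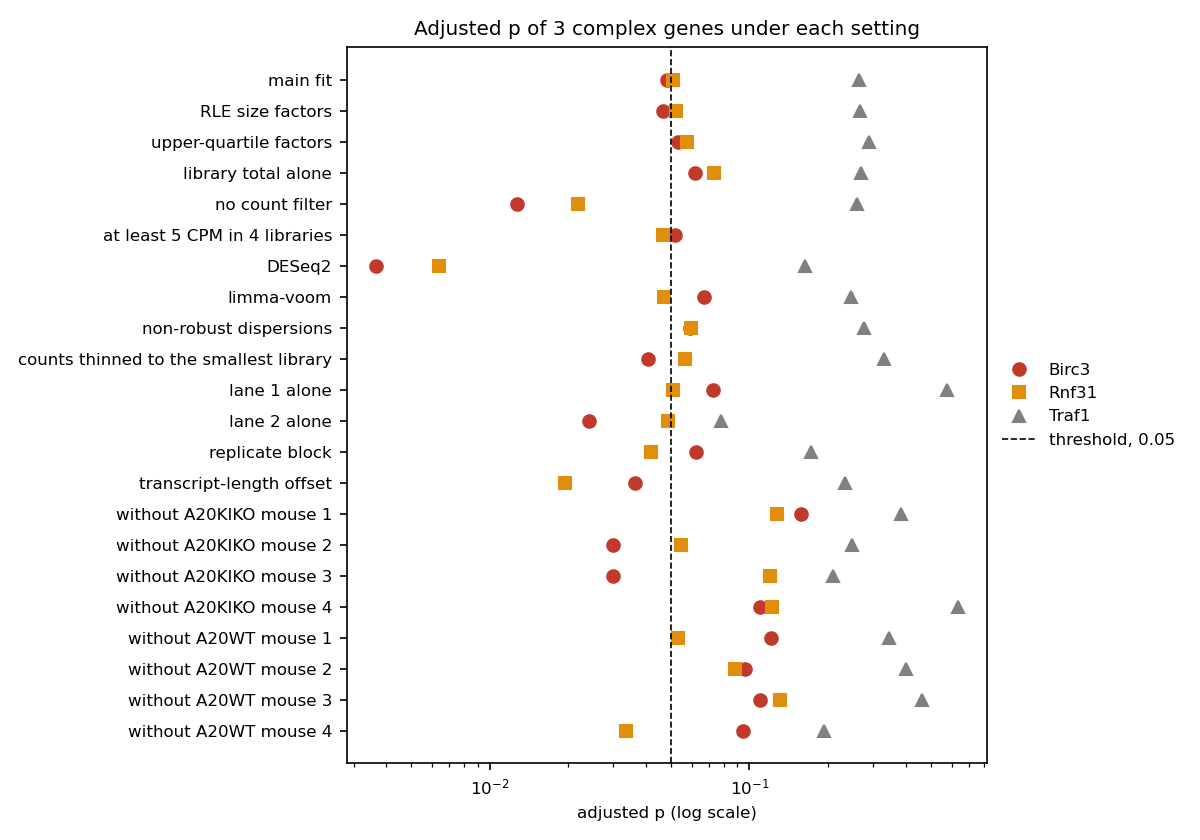
Adjusted p (log axis) of Birc3, Rnf31 and Traf1 in the reported fit and in 13 alternative fits and 8 fits without a library each. The transcript-length offset was chosen after the data were seen. Birc3 and Rnf31 fall on both sides of the dashed threshold of 0.05, and Traf1 lies to its right in each fit shown, with no point where the stricter filter removed it.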

How the data were processed

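Deposited values were raw counts per Ensembl mouse gene, made by the authors, in 2 lane columns per library. Per the submitters' processing notes, HTSeq 0.6.1p1, Picard 1.139 and STAR 2.4.2a were used, with the builds GRCm38.p5 and GRCh38. Their roles, the annotation release and counting options were not given in the sources used here. Libraries were made with the SMART-Seq v4 kit, per the labels, which as a kit marks neither strand nor molecules. Lanes were summed, and symbols and positions came from GENCODE mouse release M21. In R 4.3.3, edgeR 4.0.16 tested 16512 genes kept by filterByExpr (minimum count 10, total 15), with TMM scaling, robust dispersions and group as the term. The SE was the absolute log2 change over the square root of F. CPM are counts over the TMM-scaled library total, and means are ± SD over 4 libraries. Count ratios (0.5 added to each count) were compared by exact permutation tests, with Benjamini-Hochberg adjustment over 8 pairs. Alternatives used DESeq2 1.42.0, limma 3.58.1, other scalings, filters and lanes. SciPy 1.17.1 and Matplotlib 3.10.9 were used, and the tests were tested on simulated data. The genes named were the 10 members, of each other list the called genes (up to 3) or the 2 most abundant, tested neighbours within 5 kb, and the 3 genes that correlated best with a called member; Tnfrsf1a, Otulin and the cell markers given were added after their values were seen. Members, lists and tests were chosen with earlier results of these data known. Labels give no extraction or sequencing batch.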

Additional observations from a re-analysis of the deposited data

Results flagged for a closer look

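The count ratio of Rnf31 to Sharpin was 0.41 in A20WT mouse 1 and 0.76 to 0.79 in the other 3 A20WT libraries, a gap of 0.92 of the group's range, above Dixon's critical value for 4 samples. In 54 such groups of 4 libraries this was the 1 outlying value, where chance marks about 1 in 20. That library had the lowest Rnf31 and the highest Sharpin of the A20WT group, and its deviations went with transcript length over all tested genes (Spearman rho -0.483). Without it the log2 ratio difference between the groups was 0.47, against 0.70 with it (exact permutation p = 0.0571 and 0.0286), and the part of transcript length in it was not tested.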

How the results depend on the processing

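Over all tested genes 576 changed, 374 with the stricter filter (at least 5 CPM in 4 libraries), 1133 with DESeq2, 250 at adjusted p under 0.01 and 348 to 619 when a library was left out. Of the 10 complex genes 1 changed. The number was 0 with upper-quartile factors, the library total alone, non-robust dispersions, lane 1 alone or adjusted p under 0.01. It was 2 with no count filter, DESeq2, lane 2 alone or the transcript-length offset, which was chosen after seeing the data, and 0 to 1 when a library was left out. Birc3 missed the threshold with upper-quartile factors (log2 change 0.72), the library total alone (0.74), the stricter filter (0.76), limma-voom (0.74), non-robust dispersions (0.76), lane 1 alone (0.77) and at adjusted p under 0.01 (0.76), with 0.58 to 0.88 when a library was left out. Rnf31 passed with no filter (0.63), the stricter filter (0.62), DESeq2 (0.63), limma-voom (0.66), lane 2 alone (0.63) and the length offset (0.60), with 0.50 to 0.75 when a library was left out. Ripk1 changed sign with limma-voom (0.03), and leaving out a library gave -0.20 to 0.13 for Ripk1, -0.13 to 0.03 for Sharpin, -0.24 to -0.04 for Tradd, 0.03 to 0.15 for Traf2, 0.19 to 0.42 for Birc2 and -0.15 to 0.40 for the Ripk1 to Tradd log2 ratio, none of them passing. The cause was not tested. Traf1 did not pass the stricter filter and was not tested there.

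Same-numbered libraries of the 2 groups deviated together with r of 0.041, 0.064, -0.014 and 0.237, so they were not treated as pairs in the reported fit. Whether same-numbered libraries shared a batch is not given in the labels. With the replicate block, 551 genes changed, the log2 change was 0.72 for Birc3 (adjusted p = 0.0622), 0.65 for Rnf31 (adjusted p = 0.0420) and 0.02 for Ripk1. For the count ratios, tests within same-numbered pairs cannot reach a p below 0.125. Without a library, no ratio passed after adjustment. In lane 2 alone 5 log2 ratio differences passed, the least number that can (adjusted exact permutation p = 0.0457): Birc3 to Birc2 (0.47), Traf1 to Traf2 (0.80), Rnf31 to Sharpin (0.64), Rnf31 to Rbck1 (0.46) and Rbck1 to Sharpin (0.19). The last 3 share their genes, and a lane is a part of the same libraries, so these are not separate results. In lane 1 alone none passed. The adjusted exact permutation p there was 0.629 for Birc3 to Birc2, 0.762 for Traf1 to Traf2 and 0.0762 for each ratio among Rnf31, Rbck1 and Sharpin.

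In the ligand list 2 genes changed, 1 with the stricter filter, 1 at adjusted p under 0.01 and 1 to 2 when a library was left out. Among deubiquitinases and binders 3 changed, 1 at adjusted p under 0.01 and 1 to 3 when a library was left out. In the death complex 1 changed, 0 with limma-voom, 0 at adjusted p under 0.01 and 0 to 1 when a library was left out. With the longest transcript as length, A20WT levels were 63.9 for Rbck1, 14.5 for Traf2, 20.5 for Sharpin, 9.15 for Birc2, 9.89 for Birc3 and 0.805 CPM per kb for Traf1. Depth limits mainly Traf1, at 123 to 617 counts per library.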
